A study of Mus musculus with 12 samples.

Results

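The fibroblast growth factor (FGF) ligands and receptors described here are 10 genes, 7 ligands (Fgf2, Fgf4, Fgf5, Fgf7, Fgf10, Fgf15 and Fgf17) and 3 receptors (Fgfr1, Fgfr2 and Fgfr3), taken by symbol from a table of 24098 mouse genes. Their messenger RNA was followed while mouse embryonic fibroblasts (MEFs) were converted to induced pluripotent stem cells (iPSCs). The MEFs carried GFP at Oct4 and were infected with pMXs retroviruses encoding Oct4, Sox2, Klf4 and c-Myc (OSKM). The study asked how gene expression and chromatin were rewired along this conversion.

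There were 12 libraries, 1 for each condition. D0 was uninfected MEFs and D3 was unsorted cells 3 days after OSKM induction. On days 6 and 9 the cultures were split by the fibroblast surface protein Thy-1 into Thy-1- (D6T-, D9T-) and Thy-1+ (D6T+, D9T+) fractions. On days 12 and 16 they were split by the sugar antigen SSEA-1 of mouse pluripotent cells into SSEA-1+ (D12S+, D16S+) and SSEA-1- (D12S-, D16S-) fractions. The study treats the Thy-1- and SSEA-1+ fractions as cells that reprogram successfully. Fully reprogrammed iPSCs and the wild-type ESD3 line of mouse embryonic stem cells (mESCs) were the end points. MEFs grew in DMEM with fetal bovine serum. By the sample labels, reprogramming cells, iPSCs and mESCs grew without a feeder layer in a serum-replacement medium with leukemia inhibitory factor, ascorbic acid, CHIR99021 (an inhibitor of the kinase GSK3) and basic FGF, the protein that Fgf2 encodes. The methods of the study also name media without basic FGF for these cells, so whether each group received an FGF from outside is uncertain. A change of medium after D0 cannot be told apart from the infection.

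FGFs are secreted proteins that bind receptor tyrosine kinases together with heparan sulphate sugars on the cell surface, and the bound receptor signals through the adaptor Frs2 and the Ras-ERK kinase cascade. In the early embryo, Fgf4 from pluripotent cells acts on the same and neighbouring cells through this cascade, which drives the primitive endoderm and prepares the epiblast for differentiation. In connective tissue, fibroblasts secrete Fgf7 and Fgf10, which act on epithelial cells through the epithelial splice form of Fgfr2.

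Levels are FPKM, fragment counts scaled by transcript length and by library depth, as the authors' cuffdiff run gave them, so levels of different genes are compared per length. Differences are given on the log2(FPKM + 1) scale, on which low genes differ less than by their ratio, and a gene was counted as higher or lower when it differed by at least 2-fold on that scale. With 1 library per condition no difference has a replicate check and no test was possible. The cuffdiff interval of each FPKM comes from a model, not from spread between cultures. Of the 10 members, all reached 1 in at least 1 library and 4 reached 5 FPKM (Fgf4, Fgf7, Fgfr1 and Fgfr3). Depth relative to D0, estimated from the smallest steps between low values, lay between 0.967 in D9T+ and 1.56 in D6T-. In bulk RNA, a lower level from fewer cells of a type and from less RNA per cell cannot be told apart.

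The labelled cell types were checked by marker genes. The summed level of 8 fibroblast markers was 7623 in D0, 35.5 in D16S+, 56.4 in iPSCs and 51.3 FPKM in mESCs. That of 8 pluripotency markers was 2.11 in D0, with Dppa4 and Tcl1 listed at 0, against 4793 in D16S+, 3545 in iPSCs and 4122 FPKM in mESCs. The SSEA-1- fractions held 720 FPKM of fibroblast and 88.2 FPKM of pluripotency markers on day 12, and 476 and 133 FPKM on day 16. In mESCs, the summed level of 5 primitive endoderm markers was 23.3 FPKM, against 1.02 to 6.56 FPKM in the other libraries.

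The members lie on 7 chromosomes of the mm9 build. Fgf4 (chromosome 7, 152047291 to 152051148, plus strand) and Fgf15 (chromosome 7, 152082437 to 152086856, plus strand) are neighbours, 31.3 kb apart with no other gene of the table between them. Fgfr2 is on the same chromosome (137305965 to 137410322, minus strand) and Fgf5 (98683203 to 98706052) and Fgfr3 (34064373 to 34079717) share chromosome 5. The remaining loci were Fgf2 on chromosome 3 (37247575 to 37303752), Fgf10 on chromosome 13 (119503506 to 119581380), Fgf17 on chromosome 14 (71036012 to 71042075) and Fgfr1 on chromosome 8 (26629231 to 26686190). The table gives Fgf7 a locus on chromosome 2 (125684845 to 125977740) that it shares with Galk2 and Fam227b, while GENCODE places Fgf7 itself at 125860394 to 125916921.

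The 250 bases before the annotated start are shown for Fgf4 and Fgf5, which were higher in SSEA-1+ than in SSEA-1- cells, and for Fgf7, which was lower. RefSeq promoters were at hand for 7 of the 10 members, and Fgf15, Fgf17 and Fgfr1 had no entry. The sequences were located in mm9 by exact match, at chr7:152047041-152047290 for Fgf4, chr5:98682953-98683202 for Fgf5 and chr2:125860144-125860393 for Fgf7, each on the plus strand and written 5′ to 3′. Capitals mark the GC box GGGCGG and the CCAAT box CCAAT, each searched on both strands.
Fgf4: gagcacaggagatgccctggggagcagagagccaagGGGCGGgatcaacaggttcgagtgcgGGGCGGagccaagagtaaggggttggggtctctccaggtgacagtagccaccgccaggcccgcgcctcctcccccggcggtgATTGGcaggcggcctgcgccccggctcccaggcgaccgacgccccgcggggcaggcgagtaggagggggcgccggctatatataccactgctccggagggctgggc
Fgf5: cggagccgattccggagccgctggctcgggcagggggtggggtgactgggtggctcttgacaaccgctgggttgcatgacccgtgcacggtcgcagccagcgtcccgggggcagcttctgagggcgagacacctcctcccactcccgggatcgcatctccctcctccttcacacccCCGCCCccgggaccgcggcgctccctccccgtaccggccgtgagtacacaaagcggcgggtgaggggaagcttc
Fgf7: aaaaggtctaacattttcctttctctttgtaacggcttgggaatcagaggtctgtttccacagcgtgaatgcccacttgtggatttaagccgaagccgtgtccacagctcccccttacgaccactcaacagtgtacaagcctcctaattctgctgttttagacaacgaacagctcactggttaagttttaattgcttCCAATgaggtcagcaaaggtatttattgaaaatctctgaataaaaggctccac
The Fgf4 window was 71.2% G or C and held GC boxes 214 and 188 bases before the start and a CCAAT box on the other strand 106 bases before it. The Fgf5 window was 70.8% G or C with 1 GC box, on the other strand 74 bases before the start. The Fgf7 window was 43.6% G or C, with a CCAAT box 53 bases before the start and no GC box. Of the members not shown, Fgf2 (62.4% G or C), Fgf10 (61.2%) and Fgfr3 (66.8% and 72.8%) held GC boxes, and Fgfr2 (44.0%) held none. On day 16 Fgf2 was lower in SSEA-1+ than in SSEA-1- cells (-0.81) and Fgfr2 higher (0.85 on the log2 scale). The contrast between the shown windows thus did not hold over all the members matched. None of these windows held the octamer ATGCAAAT that POU factors such as Oct4 bind, the TATA box letters TATAAA or the AP-1 site TGANTCA. The TATA box was searched as these exact letters only. Other letters, such as the stretch tatatata near the end of the Fgf4 window, were not counted, so a TATA box of another form is not excluded. Among 32851 RefSeq promoters of the same length, 32.7% held a GC box, 33.8% a CCAAT box, 1.60% the octamer, 12.4% the TATA box and 6.75% the AP-1 site. The known enhancer of Fgf4 that Oct4 and Sox2 bind lies in the last exon, outside the window.

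Fgf4, the main FGF of pluripotent cells, had the widest range of the members. Along the Thy-1- and SSEA-1+ fractions it stood at 0.0159 in D0, 0.0745 in D3, 0.346 in D6T-, 3.79 in D9T-, 28.2 in D12S+ and 53.9 FPKM in D16S+. It was at 45.4 in iPSCs and 52.6 FPKM in mESCs. In the opposite fractions it was at 0.114 in D6T+, 1.02 in D9T+, 2.52 in D12S- and 3.47 FPKM in D16S-. Each of these is below its partner of the same day, and both SSEA-1- values lie below that of D9T-. From D0 to iPSCs the difference was 5.51 on the log2 scale, and the interval of iPSCs (2.74 to 88.0 FPKM) lay wholly above that of D0 (0 to 0.0714 FPKM). Intervals that separate in this direction were found for 0.466% of the 14178 genes kept. Fgf4 was the only member with separated intervals, in 16 pairs of libraries, none of them the 2 fractions of 1 day.

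Fgf4 has a single annotated transcript, so the FPKM worth of 1 fragment could be read from its low values. The level in D0 corresponded to 1 fragment and that in D3 to 7 fragments, against 34 in D6T-, 260 in D9T-, 1840 in D12S+, 5111 in D16S+, 3120 in iPSCs and 3409 in mESCs. The ratio of iPSCs to D0 was therefore 2862 with a counting interval of 513 to 113094, and rests on 1 fragment in D0. Between fractions the ratio was 3.05 on day 6 (1.43 to 7.23), 3.72 on day 9 (2.81 to 4.99), 11.1 on day 12 (9.51 to 13.1) and 15.5 on day 16 (13.5 to 17.8). The ratio was larger in the SSEA-1 sorts than in the earlier Thy-1 sorts, which use another marker. These are exact intervals at the 95% level that cover counting error only.

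Fgf5, a marker of the epiblast after implantation, was high in 2 libraries only. It was at 2.59 in D12S+ and 3.36 in D16S+, against 0.218 in D12S- and 0.510 FPKM in D16S-. It was low in both end points, at 0.0559 in iPSCs and 0.0395 FPKM in mESCs. The earlier libraries held 0.306 (D0), 0.123 (D3), 0.0130 (D6T-), 0.0748 (D9T-) and 0.0421 FPKM (D9T+), and D6T+ was listed at 0. D0 was thus the highest of the libraries outside days 12 and 16. In estimated fragments, D16S+ held 249 and iPSCs 3, a ratio of 59.9 (20.3 to 292). D16S+ exceeded D16S- by a ratio of 6.59 (4.36 to 10.4), and D12S+ exceeded D12S- by a ratio of 12.3 (6.68 to 25.3).

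Other genes of the formative or primed epiblast, the state that follows naive pluripotency, were examined beside Fgf5. Otx2, a transcription factor of that state, was at 19.6 in D12S+ and 31.3 in D16S+ against 1.81 in iPSCs and 2.11 FPKM in mESCs, and it was listed at 0 in D0 and D3. Pou3f1 was at 6.55 and 7.35 in D12S+ and D16S+ and at 2.53 and 1.72 FPKM in iPSCs and mESCs. Dnmt3b, a DNA methyltransferase, had another order, with 40.2 in D12S+, 52.2 in D16S+, 156 in iPSCs and 48.5 FPKM in mESCs. Sox3 was highest in mESCs, at 3.46, against 0.830 in D12S+, 0.856 in D16S+ and 0.766 FPKM in iPSCs. The summed level of the 4 markers measured was 67.2 in D12S+, 91.7 in D16S+, 161 in iPSCs and 55.8 in mESCs, against 0.709 to 9.36 FPKM elsewhere. Their part in the Fgf5 values was not tested.

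Fgf15, the mouse counterpart of the hormone FGF19, was also highest in D16S+. It stood at 4.45 in D16S+, 3.09 in mESCs, 1.15 in D12S+ and 0.405 FPKM in iPSCs. The other libraries ranged from 0, where it was listed in D0, to 0.130 FPKM in D3. The estimated fragments numbered 242 in D16S+, 115 in mESCs, 43 in D12S+ and 16 in iPSCs, and at most 7 in any other library. A count of 0 has a one-sided limit of 3 fragments (the two-sided interval in D0 reaches 3.69 fragments). Against 3 fragments in D0, D16S+ was 53.4-fold and iPSCs 4.89-fold higher. These ratios leave out the counting error of D16S+ and iPSCs and take the 0 of D0 as a true count. D16S+ exceeded D16S-, with its 2 fragments, by a ratio of 80.1 (21.9 to 665).

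Although Fgf15 adjoins Fgf4, the neighbours differed in the end points. Between iPSCs and mESCs, Fgf15 differed by a ratio of 7.61 (4.49 to 13.8, mESCs over iPSCs) and Fgf4 by 1.16 (1.10 to 1.21). Between D16S+ and iPSCs the ratio was 10.9 (6.59 to 19.4) for Fgf15 and 1.18 (1.13 to 1.24) for Fgf4. The co-receptor of Fgf15 in the liver, Klb (beta-Klotho), reached at most 1.35 FPKM, in mESCs.

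Fgf17, a ligand of the Fgf8 subfamily, had a profile close to that of Fgf4 at a lower level. It was at 1.98 in D12S+, 2.45 in D16S+, 1.94 in iPSCs and 1.60 FPKM in mESCs. In the 8 other libraries it lay between 0.0191 in D6T- and 0.216 FPKM in D9T+. The SSEA-1- cells of days 12 and 16 fell in this low range, at 0.0835 and 0.209 FPKM. D12S+ exceeded D12S- by a ratio of 23.7 (7.77 to 118) on 69 and 3 fragments, and D16S+ exceeded D16S- by a ratio of 11.7 (5.52 to 29.8) on 124 and 7 fragments. D9T- and D9T+ held 5 and 7 fragments, a ratio of 0.634 with an interval of 0.159 to 2.32 that includes equality, while Fgf4 already differed between these fractions. The Pearson correlation of Fgf17 and Fgf4 over the 12 libraries was 0.95, a description of libraries that share 1 time course.

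**Figure D1:**
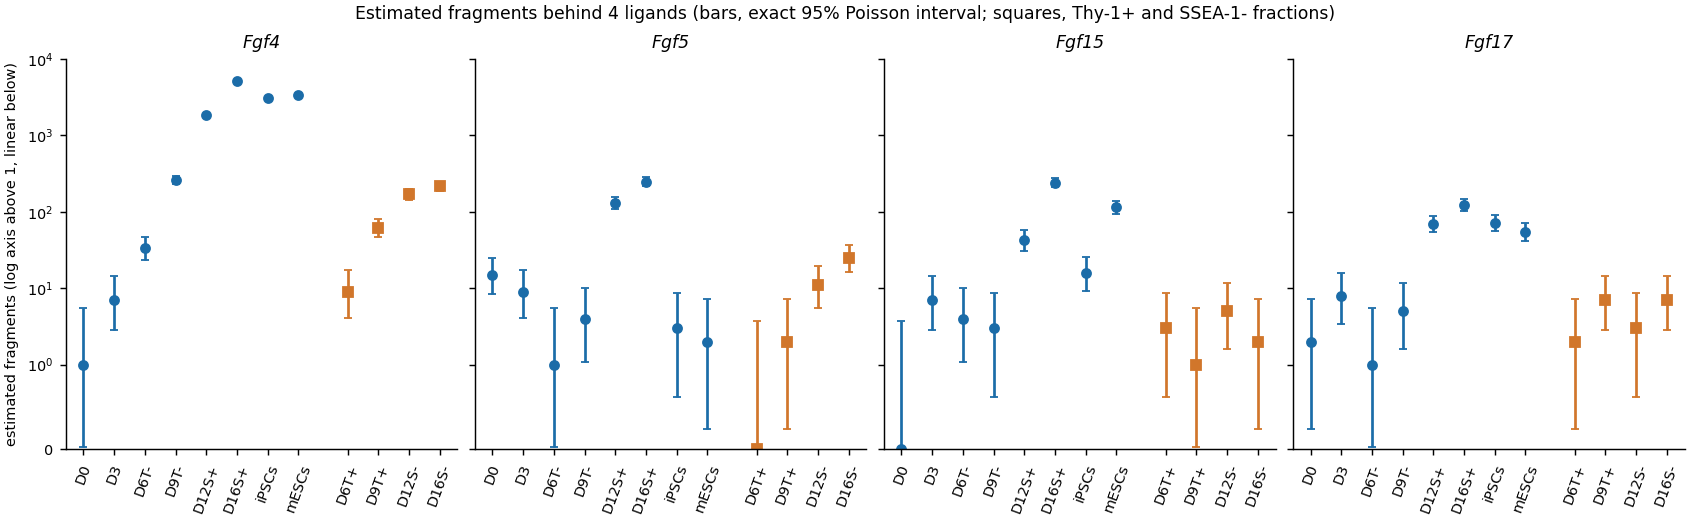
Estimated fragments per library for the 4 ligands with a single annotated transcript, on a log axis above 1 and a linear one below, with exact 95% Poisson intervals (circles, D0, D3, Thy-1-, SSEA-1+, iPSCs and mESCs; squares, Thy-1+ and SSEA-1-). Fgf4 is at 1 fragment in D0 and 5111 in D16S+, whereas Fgf5 is at 3 and 2 fragments in iPSCs and mESCs and Fgf15 stands at 16 in iPSCs and 115 in mESCs.

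Fgf7, also called keratinocyte growth factor, was the leading ligand of the fibroblasts and ran opposite to Fgf4. It was at 23.2 in D0, 7.36 in D3, 2.29 in D6T-, 3.57 in D9T-, 3.08 in D12S+ and 0.458 FPKM in D16S+. It stood at 0.731 in iPSCs and 0.0353 FPKM in mESCs. The Thy-1+ cells held 21.8 on day 6 and 33.3 on day 9, the latter above D0, and the SSEA-1- cells held 7.20 on day 12 and 8.44 FPKM on day 16. The difference between fractions was -2.79 on day 6, -2.91 on day 9, -1.01 on day 12 and -2.69 on day 16 on the log2 scale, with the Thy-1+ or SSEA-1- cells higher on each day. Its intervals were wide (0 to 54.5 in D0, 0 to 3.96 FPKM in iPSCs) and overlapped in every pair of libraries.

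The locus that the table gives to Fgf7 also covers Galk2, which encodes a galactokinase, and Fam227b. Galk2 was highest in D0, at 27.6 FPKM, and lowest in D16S+, at 9.26 FPKM. It was at 25.0 and 23.4 in D6T+ and D9T+, against 15.6 and 19.5 FPKM in D6T- and D9T-. Fam227b reached at most 0.0555 FPKM. Whether reads were shared between these genes was not tested.

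Fgf10, the other mesenchymal ligand of the epithelial Fgfr2, had low values, and unlike Fgf7 it was low in D0. It was highest in D9T+ (1.36 FPKM), D6T+ (1.04 FPKM) and D3 (0.984 FPKM), and at 0.217 FPKM in D0. It was at 0.252 in D6T-, 0.114 in D9T-, 0.0498 in D12S+, 0.0756 in D16S+, 0.193 in D12S- and 0.135 FPKM in D16S-. The end points held 0.265 (iPSCs) and 0.411 FPKM (mESCs). Only 2 libraries reached 1 FPKM, and the difference between D9T- and D9T+ was -1.08 on the log2 scale.

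Fgf2 encodes basic FGF, a ligand that leaves cells without a signal peptide. Its transcript was at 1.88 in D0, 1.30 in D3, 1.55 in D6T+ and 1.05 FPKM in D9T+. The Thy-1- cells held 0.163 on day 6 and 0.392 on day 9, the SSEA-1+ cells 0.0818 and 0.0554 on days 12 and 16, and the SSEA-1- cells 0.237 and 0.852 FPKM. It was at 0.156 in iPSCs and 0.0830 FPKM in mESCs. The libraries at 1 FPKM or more were thus D0, D3 and the Thy-1+ fractions. All 12 values, corrected for depth, were whole multiples of a fitted step of 0.0851 FPKM in D0. If that step is 1 fragment, the values of iPSCs and D6T- rest on a few fragments each. GENCODE lists 7 transcripts of Fgf2, so its fragments were not estimated.

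**Figure D2:**
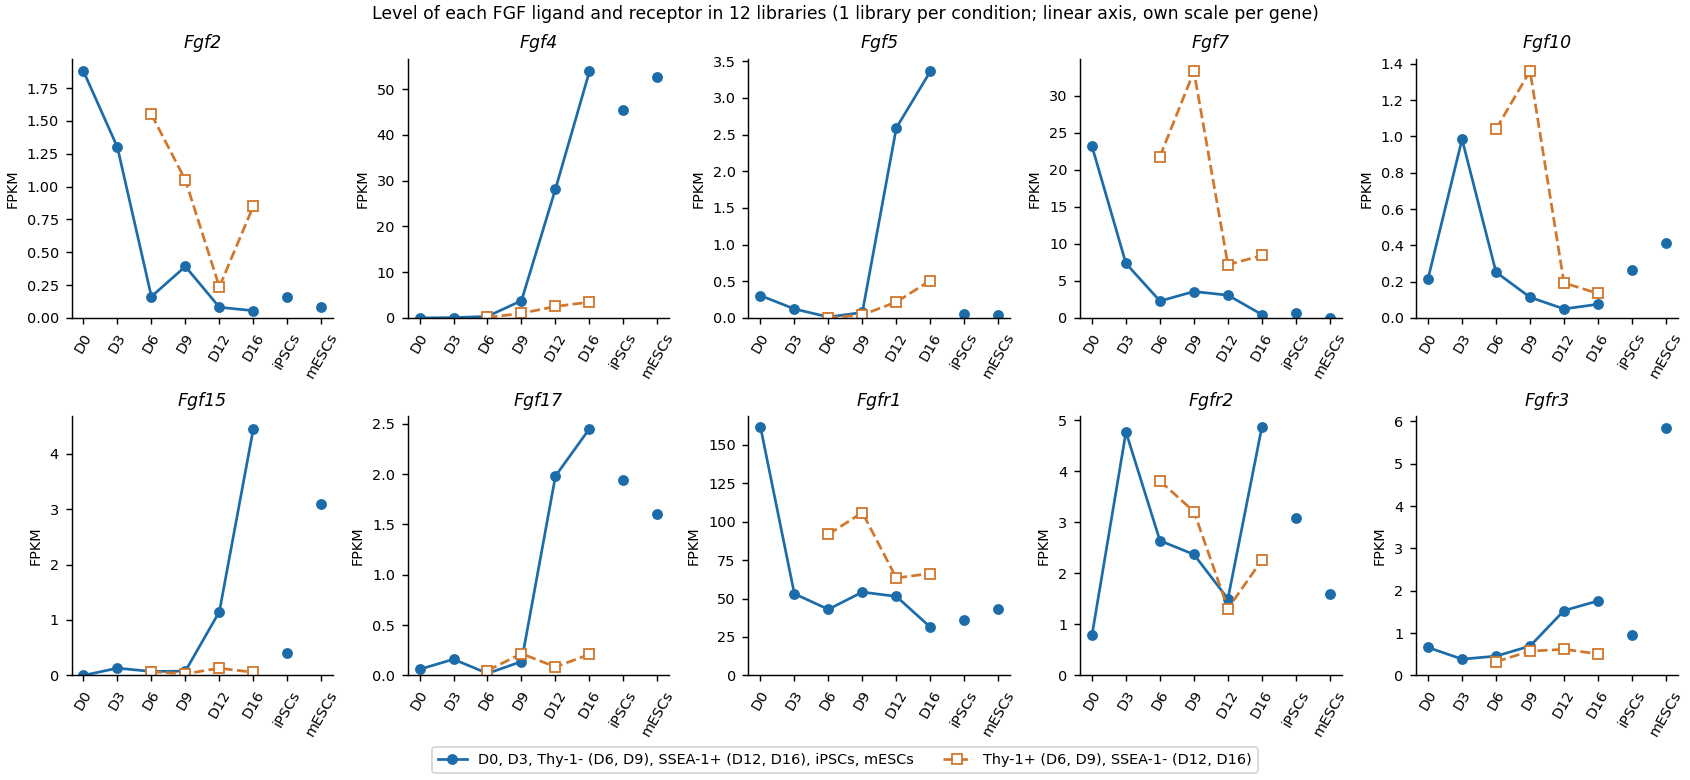
FPKM of each member in the 12 libraries on linear axes with an own scale per gene (blue circles, D0, D3, the Thy-1- and SSEA-1+ fractions, iPSCs and mESCs; orange squares, the Thy-1+ and SSEA-1- fractions; 1 library per point). Fgf4 reaches 53.9 in D16S+, Fgf7 is highest in D9T+ at 33.3 FPKM, and Fgfr1 is highest in D0 at 162 FPKM.

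Set together, the ligands exchanged places. The 18 secreted FGF ligands (the 7 members and 11 others) summed to 35.4 FPKM in D0, of which Fgf7 was 65.6% and Fgf4 0.0449%. In iPSCs they summed to 55.1 FPKM, of which Fgf4 was 82.3% and Fgf7 1.33%, and in mESCs to 66.9 FPKM, with Fgf4 at 78.7%. The sum was lowest in D6T-, at 6.65 FPKM. There Fgf18, a ligand of the skeleton and lung, stood highest at 2.82 FPKM.

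From D9T- onwards Fgf4 led the ligands of the Thy-1- and SSEA-1+ cells, at 32.2% in D9T- against 30.3% for Fgf7, then 67.1% in D12S+ and 78.7% in D16S+. In the opposite fractions Fgf7 led throughout, with 74.7% in D6T+, 75.5% in D9T+, 50.3% in D12S- and 50.6% in D16S-. The second ligand of mESCs was Fgf3 at 3.43 FPKM, named after its values were seen, which was listed at 0 in D0 and stood at 1.49 FPKM in iPSCs. Of the 11 other ligands, 6 reached 1 in a library and only Fgf18 reached 5 FPKM, in D0 (6.82 FPKM).

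**Figure D3:**
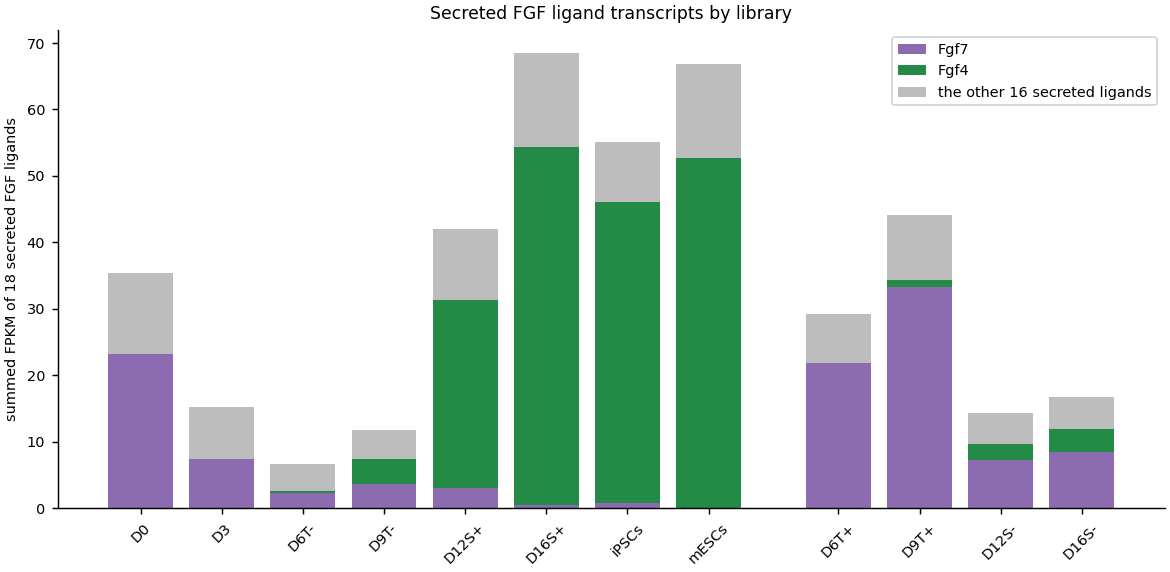
Summed FPKM of the 18 secreted FGF ligands in each library, split into Fgf7, Fgf4 and the remaining ligands, with the Thy-1+ and SSEA-1- fractions set apart on the right. The sum is 35.4 in D0, mostly Fgf7, is 6.65 in D6T-, and is 55.1 in iPSCs and 66.9 FPKM in mESCs, mostly Fgf4.

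Fgfr1, the main FGF receptor of both fibroblasts and embryonic stem cells, was the most abundant member. It stood at 162 in D0 and 53.1 in D3, then at 43.0 in D6T-, 54.2 in D9T-, 51.4 in D12S+ and 31.4 FPKM in D16S+. It was at 36.0 in iPSCs and 42.9 FPKM in mESCs. The Thy-1+ cells held 91.8 and 106 on days 6 and 9, and the SSEA-1- cells 63.4 and 66.3 FPKM on days 12 and 16. Every library was at least 31.4 FPKM and every one after D0 was lower than D0, with each Thy-1+ or SSEA-1- fraction above its partner. The intervals of neighbouring levels all overlapped (0 to 327 in D0, 0 to 76.4 FPKM in iPSCs). Its locus overlaps that of Gm16159, which reached at most 0.0572 FPKM.

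Of the 4 signalling receptors, Fgfr1 made up 99.0% of the summed FPKM in D0, 80.2% in D16S+, 85.4% in iPSCs and 70.7% in mESCs. Fgfr2, whose splice forms respond to mesenchymal or to epithelial ligands, was lowest in D0, at 0.784 FPKM. It was at 4.77 in D3, 2.64 in D6T-, 2.37 in D9T-, 1.50 in D12S+ and 4.87 FPKM in D16S+. The opposite fractions held 3.81 (D6T+), 3.21 (D9T+), 1.31 (D12S-) and 2.26 (D16S-), and iPSCs and mESCs held 3.09 and 1.60 FPKM. The order between fractions turned, since Thy-1+ cells were above Thy-1- cells and SSEA-1+ cells above SSEA-1- cells, each time by less than 2-fold on the log2(FPKM + 1) scale. GENCODE lists 29 transcripts of Fgfr2, and a gene-level value does not separate its splice forms.

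Fgfr3 stood apart in mESCs, at 5.84 FPKM. Elsewhere it was at 0.660 in D0, 0.383 in D3, 0.454 in D6T-, 0.692 in D9T-, 1.53 in D12S+, 1.76 in D16S+ and 0.963 FPKM in iPSCs. The opposite fractions held 0.324 to 0.616 FPKM. Fgfr4, the receptor on which Fgf15 acts in the liver, had its highest level in the same library, at 10.4 in mESCs against 2.11 in iPSCs and at most 1.12 FPKM elsewhere.

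The primitive endoderm factors Gata4, Gata6, Sox17 and Foxa2 were also highest in mESCs, whereas Sox7 was not. Gata4 was at 11.1 FPKM there and at most 1.77 in the other libraries, and Gata6 was at 7.82 FPKM there against 2.59 in iPSCs and 4.87 FPKM in D6T+. Sox17 was at 1.97 FPKM and Foxa2 at 0.951 FPKM in mESCs. Sox7 was highest in D0, at 1.95, against 1.44 FPKM in mESCs. The part of these factors in the level of Fgfr3 was not tested.

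To compare the end points, iPSCs were set against D0. Of the 10 members, 3 were at least 2-fold higher in iPSCs, namely Fgf4 (5.51), Fgf17 (1.47) and Fgfr2 (1.20 on the log2 scale), where 18.7% of all genes kept were higher. Another 3 were lower, Fgf7 (-3.81), Fgfr1 (-2.14) and Fgf2 (-1.32), where 21.6% of all genes were lower. The median over the members was 0.15, beside 0.03 over all genes. Against mESCs, 0 members were higher in iPSCs and 2 were lower, Fgfr3 (-1.80) and Fgf15 (-1.54), where 6.79% of all genes were higher and 7.41% lower.

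The first 3 days brought fewer differences. Fgfr2 was higher in D3 than in D0 (1.69) and Fgfr1 (-1.59) and Fgf7 (-1.53) were lower, where 5.76% of all genes were higher and 8.67% lower. The median of the members was -0.07, beside -0.02 over all genes. In D3 7 of 8 fibroblast markers were lower and 0 of 8 pluripotency markers were higher.

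The SSEA-1- cells sorted on day 16 were compared with D0 as well, the same D0 library as for D3 and iPSCs. In D16S- 1 member was higher, Fgf4 (2.14), and 2 were lower, Fgf7 (-1.36) and Fgfr1 (-1.27), where 12.8% of all genes were higher and 11.4% lower. The median of the members was -0.01, beside -0.00 over all genes. When every library was scaled to the mean total FPKM, Fgfr2 moved from 0.87 to 1.01 and Fgfr1 to -0.97, so that 2 members were higher and 1 was lower. D16S+ against D0, which shares the D0 library, gave 5 members higher and 3 lower, where 20.0% and 20.9% of all genes were.

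The sorted fractions of 1 day answer which transcripts go with the surface markers. Between D6T- and D6T+, 0 members were higher and 3 lower, Fgf7 (-2.79), Fgf2 (-1.13) and Fgfr1 (-1.08), where 2.93% of all genes were higher and 9.47% lower. Between D9T- and D9T+, Fgf4 was higher (1.25) and Fgf7 (-2.91) and Fgf10 (-1.08) were lower, where 1.81% and 6.45% of all genes were. The medians of the members were -0.22 on day 6 and -0.21 on day 9, beside 0.00 and 0.02 over all genes. The fibroblast markers moved with this sort, with 7 of 8 lower in Thy-1- cells on both days and a summed level of 449 against 2964 on day 6 and 374 against 2418 FPKM on day 9. On day 9, 6 of 8 pluripotency markers were higher in Thy-1- cells, with a summed level of 141 against 29.7 FPKM.

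Between D12S+ and D12S-, 3 members were higher, Fgf4 (3.05), Fgf5 (1.56) and Fgf17 (1.46), and 1 was lower, Fgf7 (-1.01), where 4.79% of all genes were higher and 3.03% lower. Fgf7 missed 2-fold, at -0.98, when libraries were scaled to the mean total FPKM. Between D16S+ and D16S-, 4 members were higher, Fgf4 (3.62), Fgf15 (2.37), Fgf5 (1.53) and Fgf17 (1.51), and 2 were lower, Fgf7 (-2.69) and Fgfr1 (-1.06), where 11.8% and 15.2% of all genes were. The same scaling took Fgfr1 to -0.95. The medians of the members were 0.38 on day 12 and 0.86 on day 16, beside -0.01 and -0.02 over all genes.

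The members counted as higher in SSEA-1+ cells at 2-fold were ligands. With a pseudocount of 0.1 in place of 1, Fgfr3 (1.19 on day 12 and 1.62 on day 16) and Fgfr2 (1.07 on day 16) passed 2-fold too. All 8 pluripotency markers were higher as well on both days, with summed levels of 2095 against 88.2 on day 12 and 4793 against 133 FPKM on day 16. Of the 8 fibroblast markers, 6 were lower on day 12 and 7 on day 16. The part of these cell mixtures in the ligand values was not tested. The cuffdiff intervals of every member overlapped between the fractions of each day, and those of at most 0.0141% of all genes separated on any of these days in either direction.

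**Figure D4:**
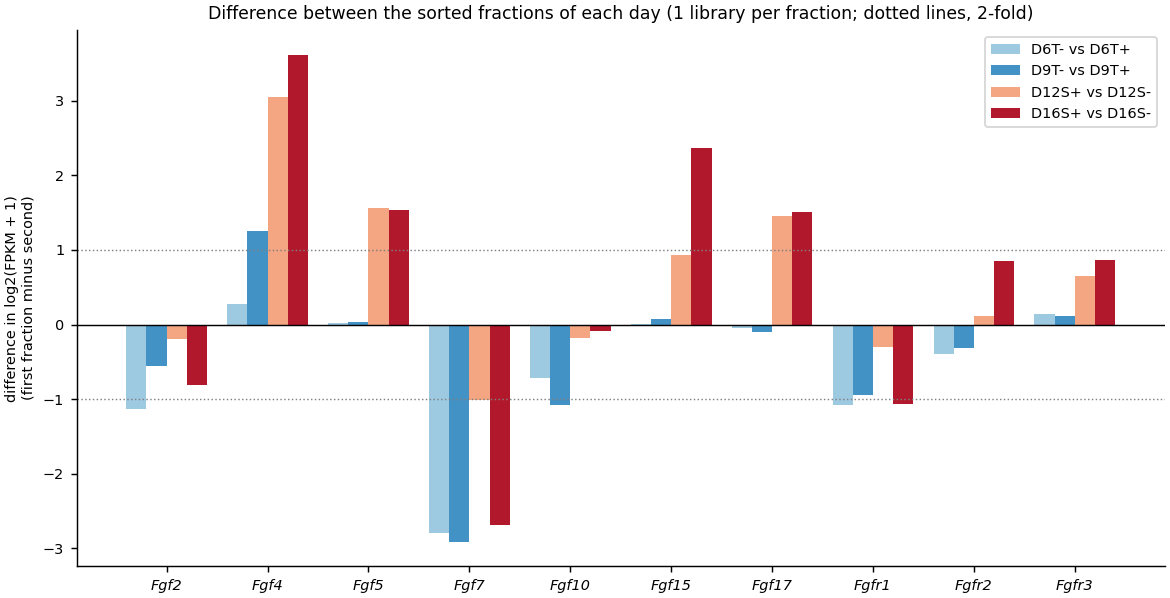
Difference in log2(FPKM + 1) between the sorted fractions of each day for the 10 members (bars, Thy-1- minus Thy-1+ on days 6 and 9 and SSEA-1+ minus SSEA-1- on days 12 and 16; dotted lines, 2-fold; 1 library per fraction, so no error bar). Fgf4 is at 3.62 on day 16, Fgf7 is negative on all 4 days, Fgf5 and Fgf17 are past 2-fold on days 12 and 16, Fgf15 is at 0.93 on day 12 and 2.37 on day 16, and these 3 are within 2-fold on days 6 and 9.

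From D16S+ to iPSCs, 0 members were higher and 2 were lower, Fgf5 (-2.05) and Fgf15 (-1.96), where 4.38% of all genes were higher and 7.77% lower. From D3 to D6T-, 0 members were higher and 1 was lower, Fgf7 (-1.34), where 3.96% of all genes were higher and 6.62% lower. From D6T- to D9T-, 1 was higher, Fgf4 (1.83), and 0 were lower, where 5.06% and 1.14% of all genes were. From D9T- to D12S+, Fgf4 (2.60), Fgf5 (1.74) and Fgf17 (1.39) were higher and 0 were lower, where 7.05% and 3.30% of all genes were. From D12S+ to D16S+, Fgf15 (1.34) and Fgfr2 (1.23) were higher and Fgf7 (-1.48) was lower, where 3.59% and 5.32% of all genes were. The steps share libraries with each other. Fgf15 thus came past 2-fold 1 step later than Fgf5 and Fgf17, but only by a narrow margin. From D9T- to D12S+ its difference was 1.00 when rounded, just under the threshold. That step was from 3 to 43 fragments, a ratio of 15.0 (4.81 to 75.7), beside 14.5 (5.91 to 45.9) for Fgf17.

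The genes whose profiles over the 12 libraries were most like those of the members were found by Pearson correlation of log2(FPKM + 1), among 10805 genes at 5 FPKM or more in a library. The libraries share 1 time course, so these values describe likeness only. For Fgf4 they were Amt, a glycine cleavage enzyme (0.998), and Gpr19, an orphan receptor (0.996). For Fgf17 they were Slc5a11 (0.993) and C330046G13Rik (0.991), for Fgf15 Peril (0.986) and Stag3, a meiotic cohesin subunit (0.973), and for Fgf5 Catsperg1 (0.935) and Pdzk1 (0.926). For Fgf7 they were H6pd (0.985) and the Wnt receptor Fzd1 (0.979), for Fgfr1 the microfibril protein Mfap2 (0.979) and Plbd2 (0.975), and for Fgf2 Pon3 (0.964). Fgfr3 was nearest to Igsf21 (0.983) and A2m (0.982), both highest in mESCs among the end points and day 16 cells, at 10.5 and 16.6 FPKM. Fgf10 (Gm6644, 0.846, and Nus1, 0.814) and Fgfr2 (Map4k3, 0.835, and Tbl1x, 0.824) had lower values for their nearest genes.

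Heparan sulphate is part of the FGF receptor complex, and its genes were mostly lower in iPSCs than in D0. Of 12 genes for heparan sulphate enzymes, 9 were lower and 0 higher, with a median of -1.76 on the log2 scale, beside 0.03 and the shares of 21.6% lower and 18.7% higher over all genes. Hs3st1, a sulfotransferase, was at 38.9 in D0 and 2.11 in iPSCs, and Sulf1, which removes sulphate, at 42.3 and 3.71 FPKM. Hs6st2 peaked in D3 at 23.6 FPKM and was at 0.666 in iPSCs, whereas Hs6st1 was at 60.8 in D0, 197 in D9T- and 61.2 FPKM in iPSCs.

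Of 12 proteoglycans measured, 6 were lower and 1 higher in iPSCs than in D0, where 21.6% and 18.7% of all genes were. Their median was -1.09 over the 12, beside 0.03 over all genes. The syndecan Sdc3 was at 105 in D0 and 3.81 in iPSCs, Sdc2 at 28.3 and 4.90 FPKM, and the glypican Gpc1 at 251 and 23.4 FPKM. Gpc3 was high in mESCs (31.9 FPKM) and D16S+ (25.7 FPKM) but at 6.04 in iPSCs and 2.94 FPKM in D0.

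The proteins that bind and release FGFs included the gene with the widest range over the 12 libraries among the pathway lists. Fgfbp1, a carrier that frees FGFs from the matrix, was at 0.352 in D0, 44.4 in D3, 44.8 in D6T-, 179 in D9T-, 146 in D12S+ and 109 FPKM in D16S+. It was at 20.6 in D6T+, 78.7 in D9T+, 177 in D12S- and 231 in D16S-, at 58.7 in iPSCs and at 1.88 FPKM in mESCs. Its order between fractions was Thy-1- above Thy-1+ and SSEA-1- above SSEA-1+. Of 7 such genes measured, 1 was higher and 4 were lower in iPSCs than in D0, where 18.7% and 21.6% of all genes were. Their median was -1.45 over the 7, beside 0.03 over all genes. Among the lower ones were Anxa2 (1797 in D0 and 191 FPKM in iPSCs), Flrt2 (9.43 and 0.144 FPKM) and S100a13 (79.1 and 8.04 FPKM).

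Epidermal markers moved with Fgfbp1 in part. Their summed level over 6 genes was 7.65 in D0, 24.5 in D3, 279 in D16S-, 188 in iPSCs and 29.9 FPKM in mESCs. Most of this sum was Sfn, at 6.79 in D0, 194 in D16S- and 180 FPKM in iPSCs. Krt14 was at 0.0609 in D0, 39.9 in D16S- and 4.95 FPKM in iPSCs. In iPSCs Krt17 was at 2.69, Krt5 at 0.308 and Trp63 at 0.00940 FPKM, and Krt6a was listed at 0. Trp63 went the other way, from 0.568 in D0 to 0.117 FPKM in D16S-. The part of the epidermal markers in the level of Fgfbp1 was not tested.

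Among the other receptors, Fgfrl1, which binds FGFs but lacks the kinase domain, was at 28.1 in D0, 6.37 in iPSCs and 10.7 FPKM in mESCs. On day 16 it stood at 8.54 in D16S+ and 46.6 FPKM in D16S-, a difference of -2.32. Of 4 intracellular FGF homologous factors, which are not secreted, 2 were kept. Of these, 0 were past 2-fold between iPSCs and D0, where 18.7% of all genes were higher and 21.6% lower.

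Downstream of the receptors, of 18 receptor-proximal genes measured, 3 were higher and 2 lower in iPSCs than in D0, where 18.7% and 21.6% of all genes were. Their median was 0.23, beside 0.03 over all genes. The docking protein Gab1 was at 5.02 in D0, 9.05 in D9T-, 16.9 in D12S+, 42.5 in D16S+, 96.7 in iPSCs and 68.1 in mESCs, against 9.08 FPKM in D16S-. Its relative Gab2 was at 3.76 in D0, 1.68 in iPSCs and 9.42 FPKM in D16S-. The adaptor Frs3 was at 3.60 in D0 and 11.2 FPKM in iPSCs.

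Of 13 genes that ERK induces, 2 were higher and 5 lower in iPSCs than in D0, beside the same 18.7% and 21.6% of all genes, with a median of -0.29. The 2 higher genes, named after their values were seen, were Etv5 (20.0 in D0 and 92.8 in iPSCs) and Il17rd (1.93 and 7.79 FPKM). Fosl1 (Fra1, an AP-1 subunit) was at 81.3 in D0 and 4.05 in iPSCs, with 94.2 in D9T+ and 60.4 in D16S- against 22.8 and 4.94 FPKM in their partners. Egr1, an immediate early gene, was at 61.9 in D0, 240 in D9T-, 386 in D9T+ and 7.55 FPKM in iPSCs. The phosphatase Dusp4 was at 41.3 in D0, 5.32 in iPSCs and 61.3 FPKM in D16S-. Etv4, an ETS factor, had a minimum in D9T- (8.80 FPKM), between 85.6 in D0 and 69.8 in iPSCs, and was at 108 FPKM in mESCs.

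Of 7 regulators that choose between the splice forms of FGF receptors, 3 were higher and 2 lower in iPSCs than in D0 (median 0.56), where 18.7% of all genes were higher and 21.6% lower. Esrp1, an epithelial splicing factor that favours the epithelial form of Fgfr2, was at 0.0120 in D0, 4.99 in D9T-, 17.8 in D12S+, 32.7 in D16S+, 10.2 in iPSCs and 3.49 in mESCs, and at 5.31 FPKM in D16S-. Its paralogue Esrp2 was at 0.563 in D0, 6.95 in D3, 13.2 in D12S+ and 12.4 FPKM in iPSCs. Rbm47 was at 2.87 in D0 and 12.9 in iPSCs, and Mbnl1 was highest in D3, at 15.3 FPKM, and at 0.922 FPKM in iPSCs. The epithelial markers, 6 of 6 of which were higher in iPSCs than in D0, summed to 61.9 in D0 and 1658 FPKM in iPSCs. Their part in these values was not tested, and which form of Fgfr2 was made is not given by gene-level FPKM.

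**Figure D5:**
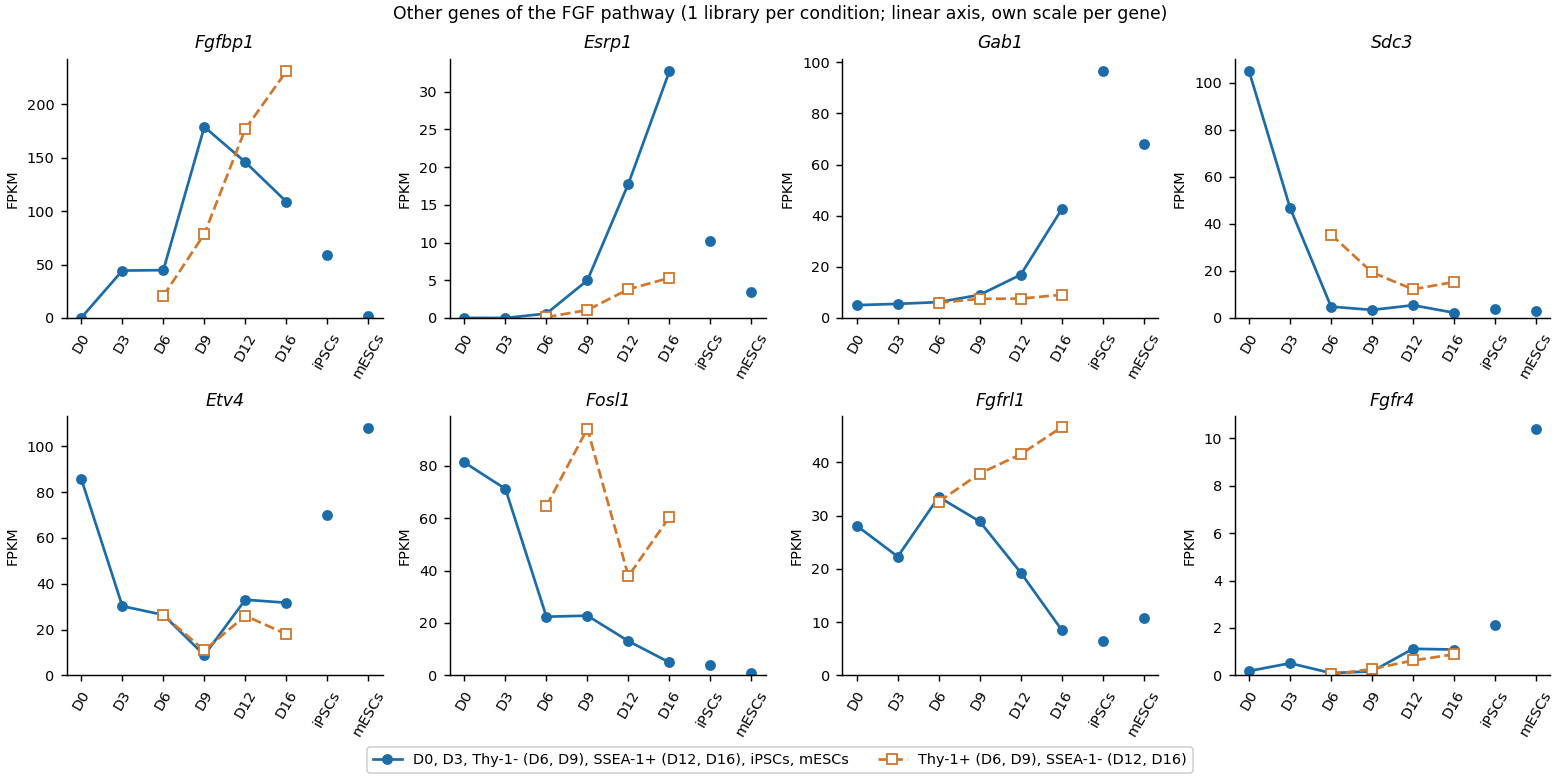
FPKM of 8 other genes of the FGF pathway in the 12 libraries on linear axes with an own scale per gene (blue circles, D0, D3, the Thy-1- and SSEA-1+ fractions, iPSCs and mESCs; orange squares, the Thy-1+ and SSEA-1- fractions; 1 library per point). Fgfbp1 reaches 231 in D16S-, Esrp1 peaks at 32.7 in D16S+, Gab1 is highest in iPSCs at 96.7 FPKM, and Fgfr4 is highest in mESCs at 10.4 FPKM.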

How the data were processed

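Polyadenylated RNA of 12 libraries, 1 per condition, was sequenced on a HiSeq instrument. The labels name a stranded TruSeq mRNA kit and the methods a TruSeq RNA kit, so strandedness is uncertain. The authors mapped reads to mm9 with STAR, removed reads with more than 2 mismatches or more than 1 locus, and estimated gene levels with cuffdiff (tools also in the submitters' processing notes). Versions, annotation, strand setting and library scaling are not given in the sources used here. The deposited values are FPKM with the lower and upper interval ends. A further 12 columns of status words were not used. A value of 0 is called listed at 0 because cuffdiff can also write 0 for a failed estimate.

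Groups follow the sample titles. The members and gene lists were chosen with earlier results of these data known. Genes with at least 1 FPKM in a library were kept (14178). Levels were compared as log2(FPKM + 1) and counted at 2-fold, with no test. Up to 4 genes per list were named, those with the widest log2 range among genes at 5 FPKM or more, as were the 2 genes most correlated with each member and those overlapping a member's locus. Marker genes are named beside the values they move with. Hras1 and Oct6 had no row in the table. The values of 2 genes that this rule names are not reported here.

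Relative depth is the most common ratio of values under 0.5 FPKM in D0 and a second library. For Fgf4, Fgf5, Fgf15 and Fgf17, each with 1 GENCODE transcript, 27 of 28 low values (up to 30 fragments) were whole multiples of 1 fragment within 0.1. The step was fitted to make the most values whole, and genes were used only at 80% whole values or more. That count is therefore not an independent check. With the transcript lengths the steps imply 19600000 to 20700000 fragments in D0. Fragments for higher values are rounded estimates. Fragment intervals are exact Poisson, ratio intervals exact conditional binomial (Clopper-Pearson), both at 95%, for counting error only. In simulated data the functions recovered the relative depths and most of the known folds. Recovery of the fragment steps was counted there but not required. Promoters came from a RefSeq table of GRCm38.p6, placed in mm9 by exact match. Alternatives were a pseudocount of 0.1, scaling to the mean total FPKM, median-of-ratios size factors, only members at 5 FPKM, and a 4-fold threshold. Python 3.11.15, numpy 2.4.6, pandas 2.3.3, scipy 1.17.1 and matplotlib 3.10.9 were used.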

Additional observations from a re-analysis of the deposited data

How the results depend on the processing

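Each condition had 1 library, so no spread could be measured, and below about 0.1 FPKM the members rest on a few fragments. For Fgf2 this probably holds at higher levels too, since its fitted step was 0.0851 FPKM in D0. No paired analysis was possible because each condition had 1 library and no result comes from a test. Of 112 recomputed counts and medians of the members, 79 kept their value within the margins (1.5 times for a count, 0.25 on the log2 scale for a median) and 33 moved. Of 240 recomputed single differences, 59 moved, and 0 of those at least 2-fold in the main setting changed sign. A change of pseudocount cannot turn the sign of a single difference. Small medians did change sign, such as iPSCs vs D0 from 0.15 and D16S+ vs D16S- from 0.86 with only the 4 members at 5 FPKM or more. Median-of-ratios size factors moved none of these counts, medians and differences. A pseudocount of 0.1 gave higher counts of 3 for D3 vs D0, 2 for D16S- vs D0, 1 for D6T- vs D6T+, 5 for D12S+ vs D12S- and 1 for iPSCs vs mESCs, and medians of 0.68 for D12S+ vs D12S- and 1.35 for D16S+ vs D16S-, as low genes weigh more on that scale. Scaling to the mean total FPKM gave 2 members higher and 1 lower for D16S- vs D0, 0 lower for D12S+ vs D12S- and 1 lower for D16S+ vs D16S-. This scaling also moved the median of all genes from 0.03 to 0.18 for iPSCs vs D0, from -0.02 to 0.12 for D3 vs D0 and from -0.00 to 0.19 for D16S- vs D0, and moved the split of all genes for iPSCs vs D0 from 2650 higher and 3064 lower to 3248 and 2530, for D3 vs D0 from 816 and 1229 to 1152 and 888, for D16S- vs D0 from 1821 and 1620 to 2303 and 1075, for D16S+ vs D16S- from 1669 and 2162 to 1980 and 1967 and for iPSCs vs mESCs from 963 and 1050 to 1129 and 851. With only the 4 members at 5 FPKM or more, fewer genes were counted. Higher counts were then 1 for iPSCs vs D0, 0 for D3 vs D0, 1 for D12S+ vs D12S- and 1 for D16S+ vs D16S-, lower counts were 1 for D9T- vs D9T+ and 1 for iPSCs vs mESCs, and medians were -0.95 for iPSCs vs D0, -0.90 for D3 vs D0, -0.71 for D16S- vs D0 and -0.09 for D16S+ vs D16S-. At 4-fold, the members higher and lower were 1 higher for iPSCs vs D0, 0 and 0 for D3 vs D0, 0 lower for D16S- vs D0, 1 lower for D6T- vs D6T+, 0 and 1 for D9T- vs D9T+, 1 and 0 for D12S+ vs D12S-, 2 and 1 for D16S+ vs D16S- and 0 lower for iPSCs vs mESCs.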
